A study of Mus musculus with 8 samples.

Results

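The chemokine receptors that guide thymocytes and T cells are described here by 9 genes, Cxcr6, Cxcr4, Cxcr3, Ccr9, Ccr7, Ccr8, Ccr4, Ccr2 and Ccr6, out of 18193 genes measured. Members were taken by symbol from the platform annotation. They had 17 of the 34945 probe sets that carry 1 symbol, and the probe set with the highest mean over the 8 arrays stood for its gene. RNA came from T29, a cell line from a mouse thymic lymphoma, which the series text gives as Ikaros-deficient. Ikaros is a zinc finger transcription factor encoded by Ikzf1. The 4 groups had 2 arrays each. They were Ik1ER cells with 100 nM 4-hydroxytamoxifen (4OHT), Ik1ER cells with ethanol, MigR1 cells with 4OHT and MigR1 cells with ethanol, all harvested after 24 h. Ik1ER cells carry an inducible Ikaros protein in the retroviral vector MigR1, and MigR1 cells carry the vector alone. The study was built to find genes that respond to Ikaros. All groups share the same lymphoma line, so the values describe 1 transformed cell type. Separate cultures behind the 2 arrays of a group are not stated, and the p-values therefore reflect array-to-array spread that could be technical only. The number of arrays limits the precision.

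Chemokine receptors are G protein-coupled receptors that sense gradients of small secreted proteins, the chemokines, and steer the movement of the cell. In the thymus, Cxcr4 and Ccr9 hold immature cells in the cortex, while Ccr4 and Ccr7 draw selected cells to the medulla. Cxcr6, Cxcr3, Ccr8, Ccr2 and Ccr6 are better known from effector, memory, regulatory and innate-like T cells that enter tissues. Ikaros acts in these lineages as both a repressor and an activator of transcription.

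The arrays had medians of 5.36 to 5.43 on the log2 scale. The array labelled replicate 2 stood apart in both Ik1ER groups. Its transferrin receptor control probe sets differed between the 3' and 5' ends by 1.91 in 4OHT and 1.66 in ethanol, against 1.15 to 1.39 on the other 6 arrays. As a gauge of background, the brightest of 27 Bacillus spike-in probe sets averaged 5.27. One Ikzf1 probe set averaged 10.86 and 10.88 in Ik1ER cells with 4OHT and ethanol, against 8.34 and 8.13 in MigR1 cells, while the other lay between 10.11 and 10.30 in every group. Of 16 measured T lineage markers 15 averaged above the gauge and Cd5 did not. In Ik1ER cells 9 of these 16 were called between 4OHT and ethanol, against 5.34% of all genes. The 16 had a summed level of 15.72 to 15.80 (log2 of the sum) in 4OHT and 15.88 to 15.89 in ethanol. The calls ran both ways, and these markers are named after their values were seen. The coreceptor genes Cd8a (1.84), Cd8b1 (1.56) and Cd4 (0.72) and the adhesion molecule gene Cd2 (0.87) rose. The CD3 chain genes Cd3d (-0.49), Cd3e (-0.43) and Cd3g (-0.69), the pre-T cell receptor gene Ptcra (-0.61) and the terminal transferase gene Dntt (-0.52) fell. These stage markers moved in the same arrays as the chemokine receptors described here, and their part in those results was not tested.

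The 2 members with the largest differences lie close together on chromosome 9. The 250 bases before their annotated start sites are shown to set the member that was called beside the one with the next largest difference. The sequences are those of RefSeq on GRCm38.p6. Cxcr6 covers chr9:123806227-123806476 and Ccr9 chr9:123766961-123767210, both on the plus strand. Capitals mark TGGGAT, a form of the Ikaros recognition motif.
Cxcr6: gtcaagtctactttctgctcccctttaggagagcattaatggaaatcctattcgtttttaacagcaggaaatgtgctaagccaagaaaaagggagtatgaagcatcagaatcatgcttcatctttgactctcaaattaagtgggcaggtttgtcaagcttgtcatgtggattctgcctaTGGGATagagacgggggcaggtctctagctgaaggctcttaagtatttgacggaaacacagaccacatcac
Ccr9: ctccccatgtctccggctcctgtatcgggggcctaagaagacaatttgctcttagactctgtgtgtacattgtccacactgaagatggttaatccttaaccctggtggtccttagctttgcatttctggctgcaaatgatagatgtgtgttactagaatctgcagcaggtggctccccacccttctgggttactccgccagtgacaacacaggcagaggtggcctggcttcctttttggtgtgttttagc
Motifs searched on both strands were GGGAA, the shared core, and TGGGAA and TGGGAT, of which TGGGAA contains the core. The Cxcr6 stretch held 1 match, a TGGGAT that starts 71 bases before the start site, and the Ccr9 stretch held none. Of all 32851 promoter stretches of the same length, 12.5% held TGGGAT, 21.6% held TGGGAA and 56.2% held GGGAA. A promoter entry was found for 8 of the 9 members, with 2 for Ccr6, and Ccr7 had none. Among these 9 stretches TGGGAT was in 2 (Cxcr6 and Ccr4), TGGGAA in 1 (Ccr6) and GGGAA in 3 (Cxcr4, Ccr4 and Ccr6). A match of letters is a description and not evidence of binding.

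Cxcr6 rose with 4OHT in Ik1ER cells. It encodes the receptor for the chemokine Cxcl16 and marks activated, tissue-resident and innate-like T cells. It read 6.88 and 6.73 (log2) in Ik1ER cells with 4OHT, against 4.89 and 4.66 in Ik1ER cells with ethanol. In MigR1 cells it read 5.32 and 4.74 with 4OHT, against 5.46 and 5.08 with ethanol. Both induced Ik1ER arrays thus lay above all 6 others, among which the MigR1 arrays with 4OHT overlapped both ethanol groups. The rise was 2.03 on the log2 scale, or 4.09-fold (SE 0.20, 95% interval 1.58 to 2.49, adjusted p = 0.00146, limma), and ranked 5 from the top among all 18193 genes. It was the single member called among 9, where limma called 5.34% of all genes in this comparison, 2.80% higher and 2.53% lower. The call was kept with each array left out in turn (1.92 to 2.15, adjusted p at most 0.0153) and without both Ik1ER replicate 2 arrays (2.00, adjusted p = 0.0481).

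The dimmer probe set of Cxcr6 was also called in Ik1ER cells. It read 5.15 and 5.61 in Ik1ER cells with 4OHT, against 3.74 and 3.33 with ethanol, and 4.07 and 3.71 in MigR1 cells with 4OHT, against 3.80 and 3.44 with ethanol. Its difference in Ik1ER cells was 1.85 (SE 0.22, adjusted p = 0.00505 over the 34945 probe sets). Its MigR1 difference was 0.26, opposite in sign to the brighter probe set, and neither was called. Without induction both probe sets read near or below the highest Bacillus control mean of 5.27, so the size of the rise rests on a level close to background in ethanol. In whole-culture RNA a larger share of Cxcr6-expressing cells and more transcript per cell cannot be told apart. Markers of cytotoxic and natural killer cells, which also use this receptor, had 2 of 9 called in Ik1ER cells, against 5.34% of all genes. The list summed to 13.66 to 13.78 in 4OHT and 12.72 to 12.84 in ethanol (log2 of the sum). That sum was carried by the granule protease gene Gzma (mean level 13.07, difference 0.96), with the pore-forming protein gene Prf1 the other call (0.52). The natural killer receptor genes Ncr1 (4.22), Klrd1 (3.31) and Klrk1 (4.36) averaged below the control gauge, and the part of such cells in the result was not tested. Myeloid markers had 4 of 12 called in Ik1ER cells, against 5.34% of all genes. Lyz1 (-1.05), Lyz2 (-0.60) and Cd14 (-1.26) fell and Itgam (0.54) rose. Lyz1 (mean level 3.85) and Itgam (4.59) averaged below the control gauge. The myeloid list summed to 8.40 to 8.48 in 4OHT, against 8.77 to 8.82 in ethanol in Ik1ER cells. limma called none of 7 B cell markers (1 with an unadjusted p under 0.05) and none of 4 erythroid markers (0 with an unadjusted p under 0.05). Of 9 stromal markers 1 was called, Pecam1 (0.79, mean level 8.01), against 5.34% of all genes, and 3 had an unadjusted p under 0.05.

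**Figure D1:**
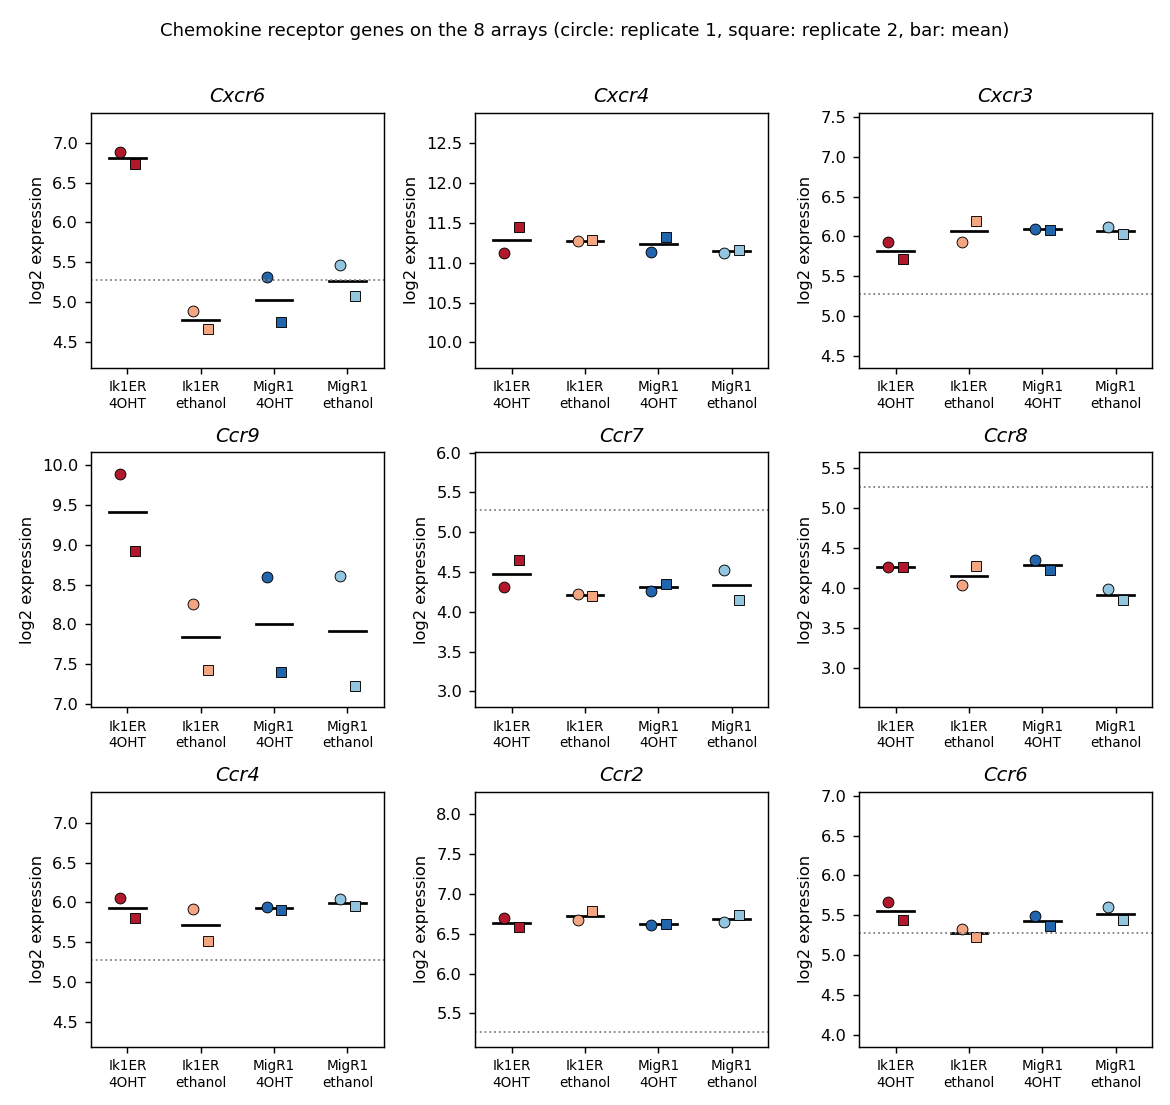
Log2 expression of each chemokine receptor gene (y axis, same span of 3.2 units in every panel) on the 8 arrays by group (x axis), with circles for replicate 1, squares for replicate 2, bars for group means and a dotted line at the highest Bacillus control mean. Cxcr6 stands at 6.88 and 6.73 in induced Ik1ER cells, above all other arrays, and Ccr9 is higher on the replicate 1 array of each group.

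Ccr9, the receptor for the thymic and intestinal chemokine Ccl25, had the next largest difference and was not called. It read 9.89 and 8.92 in Ik1ER cells with 4OHT, against 8.26 and 7.42 in Ik1ER cells with ethanol. In MigR1 cells it read 8.60 and 7.41 with 4OHT, against 8.61 and 7.23 with ethanol. Both induced Ik1ER arrays were again above all 6 others. The difference in Ik1ER cells was 1.57, or 2.96-fold, with a wide error (SE 0.56, 95% interval 0.26 to 2.87, adjusted p = 0.188), and ranked 23 from the top of 18193 genes. The spread between the arrays of a group was 0.84 to 1.38, and only 1 gene of 18193 had a larger pooled spread. The array labelled replicate 1 was the higher in each of the 4 groups. Replicate 1 exceeded replicate 2 in all 4 groups for 4 of the 9 members (Cxcr6, Ccr9, Ccr4 and Ccr6), against 10.7% of all genes, and by as much as in Ccr9 for 2 genes in all, Ccr9 and Gem.

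The 5 probe sets of Ccr9 fell into bright and dim ones. The next brightest read 8.53 and 7.60 in Ik1ER cells with 4OHT, against 6.48 and 5.80 with ethanol, a difference of 1.92 (SE 0.53, adjusted p = 0.120 over all probe sets). In MigR1 cells it read 7.27 and 5.89 with 4OHT, against 7.21 and 6.15 with ethanol. The third brightest differed by 1.46 in Ik1ER cells (SE 0.58, adjusted p = 0.296). Both remaining probe sets averaged 3.99 and 3.93, below the control gauge on every array, and differed by 0.19 and -0.10. None of the 5 was called. Replicate 1 also exceeded replicate 2 in every group on the 3 brighter probe sets. Whether these probe sets share sequence was not examined, and the cause of the spread was not tested.

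**Figure D2:**
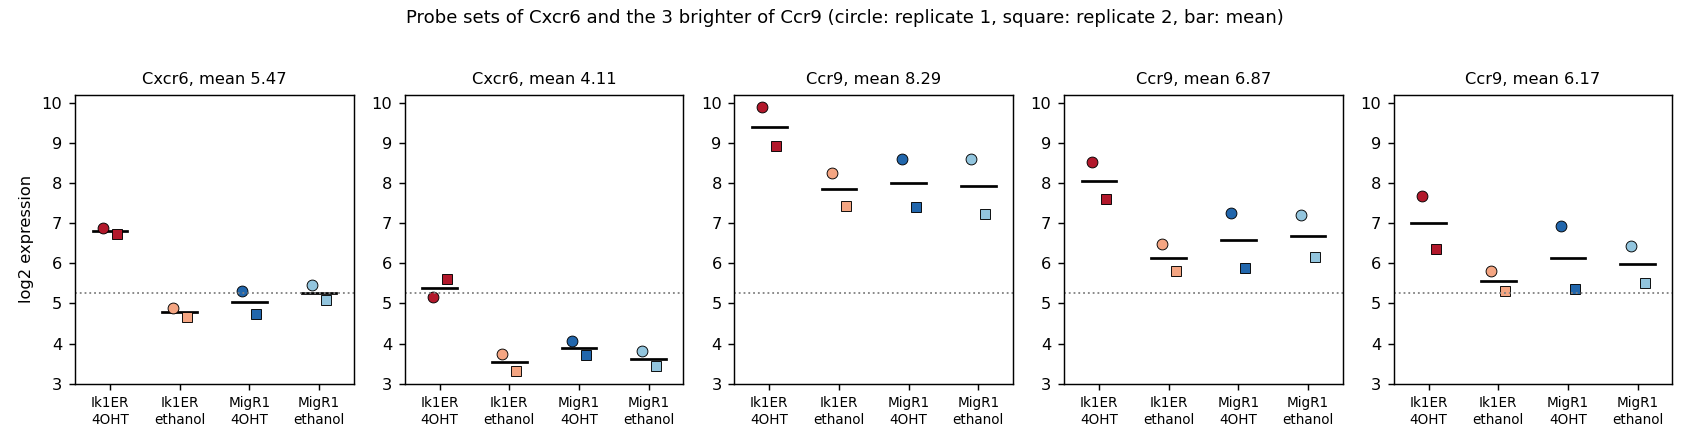
Log2 expression (y axis, shared scale) of both Cxcr6 probe sets and the 3 brighter Ccr9 probe sets by group (x axis), with circles for replicate 1, squares for replicate 2, bars for group means and a dotted line at the highest Bacillus control mean of 5.27. On both Cxcr6 probe sets the induced Ik1ER arrays lie above all other arrays, and the MigR1 arrays with 4OHT overlap both ethanol groups. On the Ccr9 probe sets the replicates of each group lie well apart, replicate 1 above replicate 2.

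Cxcr6 and Ccr9 are separated by a single protein-coding gene, Fyco1, in the RefSeq gene order of GRCm38.p6, and Fyco1 overlaps Cxcr6. These neighbours were picked after their values were seen. In order along chromosome 9 run Slc6a20b, Slc6a20a, Lztfl1, Ccr9, Fyco1, Cxcr6, Xcr1, Ccr1, Ccr1l1, Ccr3 and Ccr2. Lztfl1, which encodes a regulator of trafficking to cilia, rose by 1.19 in Ik1ER cells (SE 0.13, adjusted p = 0.00260). It read 10.66 and 10.59 in Ik1ER cells with 4OHT, against 9.44 and 9.44 with ethanol, and 9.65 and 9.34 in MigR1 cells with 4OHT, against 9.59 and 9.26 with ethanol. Its call was kept with each array left out in turn (adjusted p at most 0.0226) and lost without both Ik1ER replicate 2 arrays (1.22, adjusted p = 0.0605). Of its 5 probe sets 4 were called over all probe sets, by 0.85 to 1.47, and the dimmest, at 3.95, was not (0.11).

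Fyco1, which encodes an adaptor of vesicle transport, differed by 0.65 in Ik1ER cells and was not called (SE 0.16, 95% interval 0.28 to 1.01, adjusted p = 0.0592). It read 7.00 and 7.32 with 4OHT, against 6.35 and 6.67 with ethanol. Its other probe set, which averaged 5.21, differed by 0.23 (SE 0.12, adjusted p = 0.455 over all probe sets). Whether its probe sets and those of Cxcr6 share sequence was not examined. Slc6a20a and Slc6a20b, genes of amino acid transporters on the other side of Lztfl1, differed by 0.40 and 0.18 in Ik1ER cells and were not called (adjusted p = 0.479 and 0.508). Slc6a20a read 4.19 and 4.42 with 4OHT, against 3.86 and 3.94 with ethanol. Slc6a20b read 4.58 and 4.32 with 4OHT, against 4.29 and 4.25 with ethanol, and both genes lay below the control gauge. On the probe sets that stood for them, the 6 adjacent genes from Slc6a20b to Cxcr6 had both induced Ik1ER arrays above both ethanol arrays, as did 21.0% of all genes. The chemokine receptor genes on the far side of Cxcr6 did not follow. Xcr1, the receptor of a dendritic cell-attracting chemokine, differed by 0.03, Ccr1 by -0.13, Ccr1l1 by 0.08, Ccr3 by -0.35 and Ccr2 by -0.09, with no call among them. Except for Ccr2, these genes read below the control gauge on every array.

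**Figure D3:**
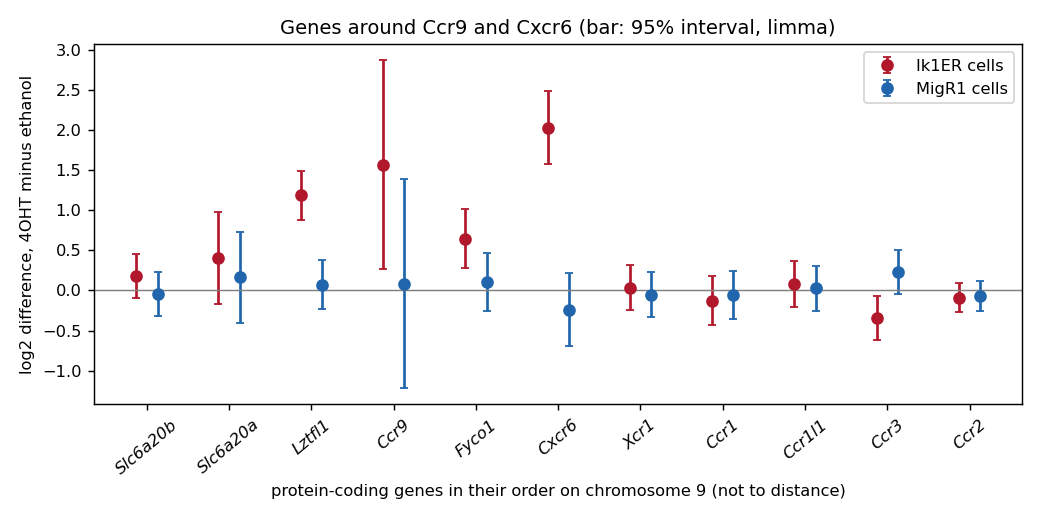
Log2 difference of 4OHT minus ethanol (y axis) in Ik1ER cells (red) and MigR1 cells (blue) for 11 protein-coding genes in their order on chromosome 9 (x axis, not to distance), with 95% intervals from limma. In Ik1ER cells Lztfl1 (1.19), Ccr9 (1.57), Fyco1 (0.65) and Cxcr6 (2.03) stand above 0 side by side, while Xcr1 and the genes beyond it lie near or below 0.

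The other receptors of thymocyte traffic showed no call. Cxcr4, the receptor for Cxcl12 that supports early thymocytes, was bright on all 8 arrays. It read 11.12 and 11.44 in Ik1ER cells with 4OHT, against 11.27 and 11.28 with ethanol, and 11.14 and 11.32 in MigR1 cells with 4OHT, against 11.12 and 11.16 with ethanol. The groups overlapped in both lines, and the difference in Ik1ER cells was 0.01 with a 95% interval of -0.26 to 0.27.

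Ccr7, which binds Ccl19 and Ccl21 and leads cells to the thymic medulla and lymph nodes, read 4.31 and 4.65 in Ik1ER cells with 4OHT, against 4.23 and 4.20 with ethanol. In MigR1 cells it read 4.27 and 4.35 with 4OHT, against 4.53 and 4.15 with ethanol. All 8 values lay below the control gauge of 5.27, so a level above background was not measured. The induced Ik1ER arrays were both above the ethanol ones, by 0.27 on average (95% interval -0.06 to 0.61, adjusted p = 0.402). Ccr4, the receptor for Ccl17 and Ccl22 that appears on newly selected thymocytes, read 6.05 and 5.81 in Ik1ER cells with 4OHT, against 5.91 and 5.52 with ethanol. It read 5.94 and 5.91 in MigR1 cells with 4OHT, against 6.05 and 5.95 with ethanol. The Ik1ER groups overlapped, with a difference of 0.21 (95% interval -0.10 to 0.53, adjusted p = 0.497).

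Receptors of effector and tissue-homing T cells other than Cxcr6 likewise had no call. Cxcr3, which binds the interferon-induced chemokines Cxcl9 and Cxcl10, read 5.93 and 5.71 in Ik1ER cells with 4OHT, against 5.93 and 6.19 with ethanol. In MigR1 cells it read 6.10 and 6.08 with 4OHT, against 6.11 and 6.03 with ethanol. The difference in Ik1ER cells was -0.24 (95% interval -0.49 to 0.01, adjusted p = 0.308), opposite in sign to that of Cxcr6, and the groups met at 5.93 without overlapping. Ccr6, the receptor for Ccl20, read 5.67 and 5.44 in Ik1ER cells with 4OHT, against 5.33 and 5.22 with ethanol. It read 5.49 and 5.37 in MigR1 cells with 4OHT, against 5.60 and 5.44 with ethanol. The Ik1ER groups did not overlap, and the difference of 0.28 had a 95% interval of 0.04 to 0.52 but was not called (adjusted p = 0.201).

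Ccr8, the receptor for Ccl1 found on regulatory T cells, lay below the control gauge on all 8 arrays. It read 4.26 and 4.26 in Ik1ER cells with 4OHT, against 4.03 and 4.27 with ethanol, and the groups overlapped. Ccr2, the receptor for Ccl2 best known from monocytes, read 6.70 and 6.58 in Ik1ER cells with 4OHT, against 6.67 and 6.78 with ethanol. It read 6.61 and 6.63 in MigR1 cells with 4OHT, against 6.64 and 6.73 with ethanol. Its difference in Ik1ER cells was -0.09 (95% interval -0.27 to 0.10). The other 3 probe sets of Ccr2 averaged 3.34 to 3.53, below the gauge, so that a level above background rests on 1 probe set.

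Over the 9 members, 5 had Ik1ER groups that did not overlap, 4 with both 4OHT arrays higher (Cxcr6, Ccr9, Ccr7 and Ccr6) and 1 with both lower (Cxcr3). Over all genes, groups did not overlap for 42.7%, 21.0% being higher and 21.7% lower. The members' median difference was 0.21, against -0.0044 over all genes. Unadjusted p-values under 0.05 were found for 3 of the 9, Cxcr6, Ccr9 and Ccr6, and for 17.8% of all genes.

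4OHT alone, without the Ikaros construct, was the control comparison in MigR1 cells. limma called none of the 9 members and 0% of all genes there, with an unadjusted p under 0.05 for 1 member and for 386 genes (2.12%). The 1 member was Ccr8, which read 4.35 and 4.23 in MigR1 cells with 4OHT, against 3.98 and 3.85 with ethanol (difference 0.37, SE 0.10, adjusted p = 1.00), all below the control gauge. Groups did not overlap for 3 members, Ccr8 being higher and Ccr4 and Ccr2 lower, where 29.7% of all genes did not overlap, 16.5% higher and 13.2% lower. Cxcr6 differed by -0.24 (95% interval -0.70 to 0.22) and Ccr9 by 0.08 (95% interval -1.22 to 1.39).

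Whether the effect of 4OHT differed between the lines was tested as an interaction. Cxcr6 was called, with an effect larger by 2.27 in Ik1ER than in MigR1 cells (SE 0.28, 95% interval 1.62 to 2.92, adjusted p = 0.0113). It was 1 of 9 members, where 1.26% of all genes were called. The call was lost without MigR1 ethanol replicate 1 (2.08, adjusted p = 0.0544) and without both Ik1ER replicate 2 arrays (2.24, adjusted p = 0.0963), with little change in the value. On the dimmer Cxcr6 probe set the difference of effects was 1.58 (SE 0.30) and was not called (adjusted p = 0.0877 over all probe sets). For Ccr9 the difference of effects was 1.48 with a 95% interval of -0.36 to 3.33 (adjusted p = 0.577), and for Ccr6 it was 0.37 with an interval of 0.03 to 0.71 (adjusted p = 0.392). Lztfl1 was also called (1.12, SE 0.19, adjusted p = 0.0371) and Fyco1 was not (0.54, adjusted p = 0.421).

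**Figure D4:**
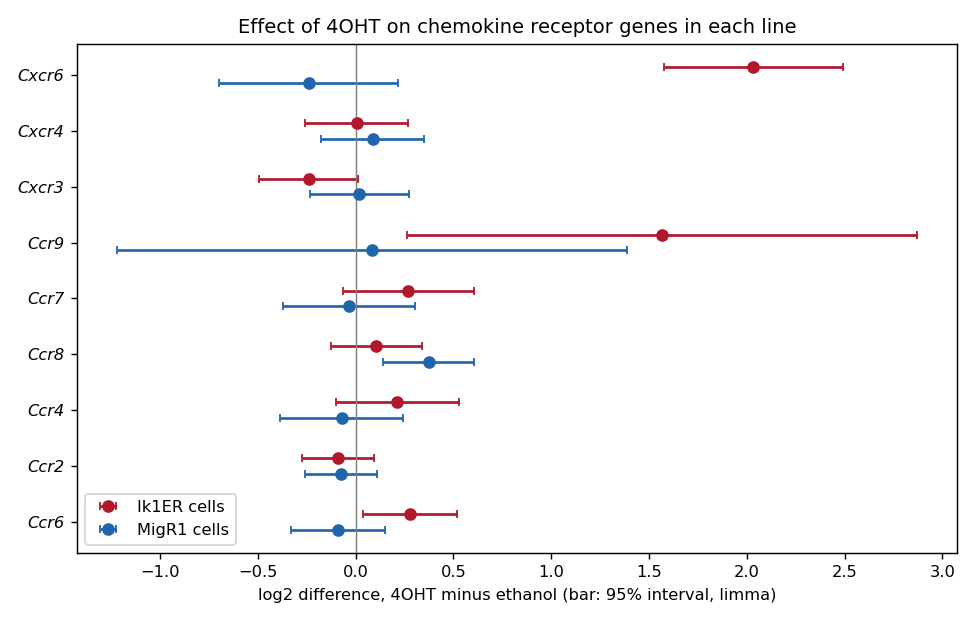
Log2 difference of 4OHT minus ethanol (x axis) for the 9 chemokine receptor genes (y axis) in Ik1ER cells (red) and MigR1 cells (blue), with 95% intervals from limma. Cxcr6 at 2.03 in Ik1ER cells has an interval wholly above that of MigR1 cells, the Ccr9 intervals are the widest, and those of the other 7 genes overlap between the lines.

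With 4OHT in both lines, Ik1ER cells differed from MigR1 cells in Cxcr6 by 1.78, or 3.43-fold (SE 0.20, adjusted p = 0.00281), the 1 member called of 9 where 5.08% of all genes were called. This comparison shares its induced Ik1ER arrays with the one against ethanol. Ccr9 differed by 1.41 (95% interval 0.10 to 2.71, adjusted p = 0.243) and Cxcr3 by -0.27 (95% interval -0.52 to -0.01, adjusted p = 0.256). Groups did not overlap for these 3 members, against 44.8% of all genes. In ethanol limma called none of the 9 between the lines and 0% of all genes. The dimmer Cxcr6 probe set differed there by -0.09. An unadjusted p under 0.05 was found for 3 members and for 968 genes (5.32%). The 3 were Cxcr6 (-0.49, 95% interval -0.95 to -0.04), Ccr6 (-0.25, 95% interval -0.48 to -0.01) and Ccr8 (0.24, 95% interval 0.0042 to 0.47). Groups did not overlap for 5 members, against 37.6% of all genes. The order of the Cxcr6 group means was Ik1ER with 4OHT (6.81 ± 0.11), MigR1 with ethanol (5.27 ± 0.27), MigR1 with 4OHT (5.03 ± 0.41) and Ik1ER with ethanol (4.78 ± 0.16; SD, n = 2 each). Among the last 3, the arrays of neighbours in that order overlapped.

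Other receptors of the family were near background. Of 17 further chemokine and migration receptor genes 15 were measured, and 3 averaged above the control gauge. limma called none of the 15 in Ik1ER cells, where 2 had an unadjusted p under 0.05, and their median difference was -0.07. Among them, and outside the rule for named genes, S1pr1, the receptor that lets thymocytes leave the thymus, averaged 4.55 ± 0.14 in Ik1ER cells with 4OHT and 4.71 ± 0.07 with ethanol (SD, n = 2), and Cxcr5, the follicle-homing receptor, 3.85 and 3.76. The chemokines that bind the 9 receptors were also without a call. Of 18 ligand genes 14 were measured, 4 of them above the gauge, with none called by limma, 0 at an unadjusted p under 0.05 and a median difference of -0.01. Cxcl16, the ligand of Cxcr6, averaged 6.16 in Ik1ER cells with 4OHT and 6.19 with ethanol (adjusted p = 0.916). Ccl25, the ligand of Ccr9, averaged 7.60 and 7.48 (adjusted p = 0.728).

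Genes that carry the signal inward from chemokine receptors came next. Of 39 measured signalling and desensitisation genes in Ik1ER cells 6 rose, 1 fell and 32 were not called, with a median of 0.12, where 5.34% of all genes were called. Of the 39 genes 34 averaged above the control gauge, and with dim genes left out limma called 1201 of 10984 genes in the series. The count of 7 called came to 1 to 5 with 1 array left out and to 0 without both Ik1ER replicate 2 arrays. Rac2, a small GTPase of blood cell motility, rose by 0.75 (SE 0.10, adjusted p = 0.00475). It read 11.66 and 11.53 in Ik1ER cells with 4OHT, against 10.83 and 10.86 with ethanol, and the groups were well apart. Coro1a, an actin regulator of T cell migration, rose by 0.59 (SE 0.11, adjusted p = 0.0180). Of the RGS proteins, which switch off G proteins, Rgs14 rose by 0.55 (SE 0.09, adjusted p = 0.0114) and Rgs10 fell by 0.60 (SE 0.09, adjusted p = 0.00964). The inhibitory G protein subunit gene Gnai3 rose by 0.34 (adjusted p = 0.0365), the receptor kinase gene Grk5 by 0.39 (adjusted p = 0.0422) and the integrin-activating GTPase gene Rap1b by 0.30 (adjusted p = 0.0431). Gnai2, named outside that rule as the main inhibitory subunit of lymphocytes, differed by -0.06 and was not called. Rac2 stayed called whichever array was left out (adjusted p at most 0.0373), and all 7 lost theirs without both Ik1ER replicate 2 arrays (adjusted p 0.0543 to 0.173). Grk5 and Rap1b lost theirs without any 1 of the 8 arrays, Gnai3 without any except Ik1ER 4OHT replicate 2, and Coro1a without any of the 4 Ik1ER arrays (adjusted p at most 0.209, 0.193, 0.184 and 0.116). Rgs14 lost its call without either Ik1ER ethanol array (at most 0.0677) and Rgs10 without Ik1ER ethanol replicate 1 (0.0610). Gnai3, Grk5 and Rap1b also lost theirs when the mean over probe sets stood for each gene. They then differed by 0.17, 0.29 and 0.26 in Ik1ER cells (limma adjusted p = 0.3045, 0.0872 and 0.0649).

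Of 23 measured transcription factor genes linked to chemokine receptor expression in T cells, 4 rose, none fell and 19 were not called in Ik1ER cells, with a median of 0.18, where 5.34% of all genes were called and 2.80% were higher. Of the 23 genes 20 averaged above the control gauge, and with dim genes left out limma called 1201 of 10984 genes. The count of 4 came to 1 to 4 with 1 array left out. Maf, a bZIP factor of helper and innate-like T cells, rose by 1.99 (SE 0.22, 3.96-fold, adjusted p = 0.00246). The lowest rise of Maf over all alternatives run was 0.97. Foxo1, a forkhead factor of T cell homing, rose by 0.91 (SE 0.15, adjusted p = 0.0125), and Klf2, a zinc finger factor of egress, by 0.48 (SE 0.09, adjusted p = 0.0246). Klf2 read 5.84 and 5.60 in Ik1ER cells with 4OHT, against 5.26 and 5.22 with ethanol. Only the 2 induced Ik1ER arrays exceeded the control gauge of 5.27, so its rise started from a level near background. Rora, a nuclear receptor of effector and innate lymphocytes, rose by 0.89 (SE 0.17, adjusted p = 0.0208), and its lowest rise over all alternatives was 0.39. Outside the rule, Tbx21 (0.22) and Eomes (-0.29), which drive effector chemokine receptors, were not called. Tbx21 averaged 5.56 and Eomes 5.23 over the 8 arrays, both near the control gauge. Maf stayed called whichever array was left out (adjusted p at most 0.0230) and lost it without both Ik1ER replicate 2 arrays (2.03, adjusted p = 0.0536). Foxo1 lost its call without either Ik1ER ethanol array, Rora without these or Ik1ER 4OHT replicate 1, and Klf2 without any of these 3 or either MigR1 ethanol array (adjusted p at most 0.0805, 0.111 and 0.131). Without both Ik1ER replicate 2 arrays Foxo1 was kept (adjusted p = 0.0417), and Rora (0.145) and Klf2 (0.0558) were lost.

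**Figure D5:**
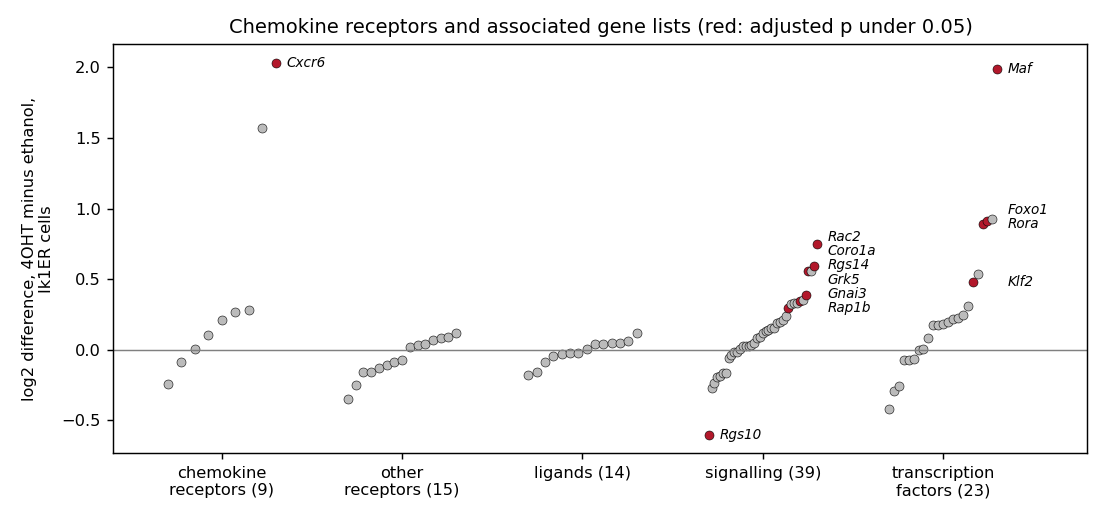
Log2 difference of 4OHT minus ethanol in Ik1ER cells (y axis) for each gene of the chemokine receptor group and of 4 associated lists (x axis, number measured in brackets), sorted within each list, with red points for genes with an adjusted p under 0.05 in limma. Called genes are Cxcr6, 7 signalling genes of which Rgs10 alone is below 0, and 4 transcription factor genes, with no call among the other receptors or the ligands.

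Over the 8 arrays the genes closest to Cxcr6 in pattern were Tktl1, Maf and Gimap8. Likeness was the root mean square difference after each gene was centred on its own mean, which was 0.10 for Tktl1, 0.13 for Maf and 0.22 for Gimap8, where Cxcr6 itself varied by 0.81. Tktl1, which encodes a transketolase-like enzyme, differed by 1.99 in Ik1ER cells and by -0.07 in MigR1 cells. Gimap8, a lymphocyte GTPase gene, differed by 1.58 and 0.02. This is a description over arrays that share their groups, and no test was applied to it.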

How the data were processed

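Biotin-labelled RNA of T29 cells was measured on 8 Affymetrix arrays, 2 per group. The deposited table holds log2 expression values, for which the submitters' processing notes name RMA. RMA sets arrays to a common distribution, so an overall change in RNA amount is not visible. Neither its version nor a genome build was stated. Names came from the platform annotation, which gives 1 symbol to 34945 of 45101 probe sets, several to 932 and none to 9160, besides 64 controls.

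The probe set of highest mean stood for each of 18193 genes, whatever its suffix. A model of 4 group means over the 8 arrays was fitted in limma 3.58.1 (lmFit, eBayes; R 4.3.3), which leaves 4 residual degrees of freedom. P-values were adjusted by Benjamini and Hochberg over all genes within each of 5 contrasts and called under 0.05. Errors beside differences are standard errors and 95% intervals from limma, and errors beside means are SD. The fit was tested on simulated data. The members and lists were chosen with earlier results of these data known. The text names all members, the called genes of each list, the 3 genes nearest in pattern to a called member, and the chromosome neighbours, which were added after their values were seen. Genes named outside that rule (S1pr1, Cxcr5, Gnai2, Tbx21, Eomes) were chosen after their values were seen. Alternatives were a replicate block, no dim genes, trend and robust eBayes, repeated normalization, median centring, other choices of probe set, fewer arrays and a minimum difference of 1.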

Additional observations from a re-analysis of the deposited data

Results flagged for a closer look

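The effect of 4OHT on Cxcr6 differed between the lines by a test of the difference itself (limma interaction, 2.27 on the log2 scale, SE 0.28, adjusted p = 0.0113). The effect was 2.03 in Ik1ER cells, with both 4OHT arrays above both ethanol arrays, and -0.24 in MigR1 cells, where the groups overlapped. The call was lost without MigR1 ethanol replicate 1 (2.08) and without both Ik1ER replicate 2 arrays (2.24). On the dimmer Cxcr6 probe set the interaction was 1.58 and was not called (limma adjusted p = 0.0877 over all probe sets). The MigR1 effect on that probe set was 0.26.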

How the results depend on the processing

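The rise of Cxcr6 with 4OHT in Ik1ER cells was called under all alternatives run. The fold of every member, Cxcr6 included, is limited by 2 arrays a group. Levels under the control gauge limit it further for Ccr7, Ccr8 and, in Ik1ER cells with ethanol, Cxcr6. Replicate numbers were not taken to pair arrays. Deviations of arrays with the same number correlated by 0.446 between the Ik1ER groups, 0.267 between the MigR1 groups and -0.0693 to 0.101 across lines. With a replicate block, 2 members were called (Cxcr6 and Ccr9) in Ik1ER cells, in the interaction and between the lines in 4OHT, with adjusted p-values for Ccr9 of 0.00125, 0.0145 and 0.00211. The block also ended the call of Rap1b (adjusted p = 0.0516) and added Rgs2 to the signalling genes called. For 4OHT against ethanol in Ik1ER cells it changed no other call among the members, Lztfl1, Fyco1, the called list genes and the genes nearest Cxcr6.

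Genes called for 4OHT in Ik1ER cells, 971 in the report, came to 399 with only the arrays compared, 156 with a difference of at least 1, 389 without both Ik1ER replicate 2 arrays and 441 to 832 with 1 array left out. For the interaction, 230 became 444 with trend and robust settings, 141 with every probe set, 109 with a difference of at least 1, 90 without both Ik1ER replicate 2 arrays and 52 to 273 with 1 array left out. Without both those arrays 0 members were called in the interaction, and 0 to 1 with 1 array left out. Between the lines in 4OHT, 925 became 416, 140 and 592 with only the arrays compared, a difference of at least 1 and without both Ik1ER replicate 2 arrays, and 237 to 805 with 1 array left out. In MigR1 cells 1 gene was called with _x_at probe sets last, and between the lines in ethanol 1 with the mean over probe sets. The interaction has no value with only the arrays compared. The causes were not tested.

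All sign changes were in differences that were not called. With 1 array left out, 4OHT minus ethanol in Ik1ER cells ran from -0.15 to 0.17 for Cxcr4 and from -0.015 to 0.23 for Ccr8. In MigR1 cells it ran from -0.53 to 0.050 for Cxcr6, -0.0041 to 0.18 for Cxcr4, -0.026 to 0.061 for Cxcr3, -0.61 to 0.78 for Ccr9 and -0.22 to 0.15 for Ccr7. The interaction ran from -0.24 to 0.078 for Cxcr4 and -0.076 to 0.043 for Ccr2. Ik1ER minus MigR1 in ethanol ran from -0.14 to 0.12 for Cxcr3, -0.77 to 0.61 for Ccr9, -0.32 to 0.059 for Ccr7 and -0.016 to 0.094 for Ccr2. In 4OHT it ran from -0.11 to 0.21 for Cxcr4, -0.096 to 0.033 for Ccr8, -0.12 to 0.13 for Ccr4 and -0.037 to 0.081 for Ccr2. Without both Ik1ER replicate 2 arrays, Cxcr4 was -0.15 and Ccr2 0.025 in Ik1ER cells, Ccr2 0.098 in the interaction, Ccr9 0.34 and Ccr2 -0.016 between the lines in ethanol, and Cxcr4 -0.11 in 4OHT. Median centring gave -0.0042 for Cxcr4 in Ik1ER cells and 0.039 for Cxcr3 between the lines in ethanol, where repeated normalization gave 0.036. The mean over probe sets gave 0.013 for Cxcr6 and 0.091 for Ccr2 in MigR1 cells and -0.057 for Ccr2 between the lines in 4OHT, and _x_at probe sets last gave -0.10 for Ccr9 in MigR1 cells. Fyco1 was called in Ik1ER cells with dim genes left out (adjusted p = 0.0469) and with trend and robust settings (0.0302).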
